A study of Mus musculus with 2 samples.

Results

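Suprabasal interfollicular epidermis, the differentiating layers above the basal sheet of the skin between hair follicles, was represented by 183 of the 7564 cells kept from 2 single-cell RNA-seq libraries of mouse back skin. The control library held 95 of these cells and the miR-205 inducible library, called induced from here on, held 88. The cells were chosen by 2 sums of unique molecular identifiers (UMIs, the tags that count single RNA molecules). Krt1 and Krt10, the keratin pair that replaces Krt5 and Krt14 when a keratinocyte leaves the basal layer, had to reach at least 100 UMIs together. Krt79, Defb6 and Cst6, genes of the upper hair follicle, had to stay below 20 UMIs together. The levels of these 5 genes in the chosen cells therefore follow from the choice and are given as description.

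Each library came from 1 mouse aged 53 postnatal days, of the C57BL/6 strain per the labels. Both mice carried the K14-H2BGFP reporter, and the induced mouse also carried a doxycycline-inducible miR-205 transgene (pTRE2-miR-205) switched on by the Krt14-rtTA driver. The labels describe 4 days of doxycycline chow from day 49 in the induced mouse, the extraction protocol describes doxycycline for both mice, and the sample label calls the control untreated. Epidermal, hair follicle and dermal cells were sorted into each library at 3:5:2, so the share of any cell type reflects the sort. The study's methods describe littermates processed together on the same chip. The Krt14 promoter that drives rtTA is a basal layer promoter. Whether the transgene driver was low in cells that had moved up was not tested. Krt14 stood at 3807 UMIs per 1000000 UMIs of the summed cells (counts per 1000000, CPM) in the control and 3726 CPM in the induced suprabasal cells, against 18238 and 17002 CPM in basal epidermal cells. The median Krt14 level per suprabasal cell was lower than these summed values, at 689 CPM in the control and 509 in the induced library. The mature miRNA was not measured, and its host transcript 4631405K08Rik gave 16 control and 19 induced UMIs in the suprabasal cells. The host transcript is not the transgene, and whether its UMIs follow the induction was not tested.

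Keratinocytes divide in the basal layer, detach from the basement membrane and move outward through spinous and granular layers before they die as cornified cells. On the way they exchange integrins and hemidesmosomes for desmosomes, switch keratins, and begin to make the proteins and lipids of the water barrier. Notch receptors and the factors Grhl3, Zfp750, Prdm1 and Cebpa are known regulators of this programme, whereas Trp63 marks the basal state. The microRNA miR-205 is abundant in skin epithelium and pairs with messenger RNAs through its seed.

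The suprabasal cells made up 2.41% (95% Clopper-Pearson interval 1.96 to 2.94) of the 3936 kept control cells and 2.43% (1.95 to 2.98) of the 3628 kept induced cells. The shares thus differed by less than their counting intervals. The intervals here and below cover counting error only, because with 1 library per group no spread between animals was measured and no test of the induction was possible. The cells were deeply sampled, with a median of 19988 UMIs in the control and 20009.5 in the induced library, against 12198.5 and 11752.5 over all kept cells. The requirement for 100 keratin UMIs moves with depth, and a rule on shares of UMIs chose 56 control and 63 induced cells instead. Summed Krt1 and Krt10 ranged from 101 to 637 UMIs per control cell, with a median of 218, and from 100 to 767 UMIs per induced cell, with a median of 217. Within 20 UMIs above the limit lay 8 control and 14 induced cells, and within 20 UMIs below it lay 16 and 8. The upper follicle limit turned away 29 control and 32 induced cells. Within 10 UMIs below that limit lay 8 control and 4 induced members, and within 10 UMIs beyond it 1 control and 8 induced cells. Across the libraries 11 barcodes were shared, and 0 of them belonged to a suprabasal cell.

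**Figure D1:**
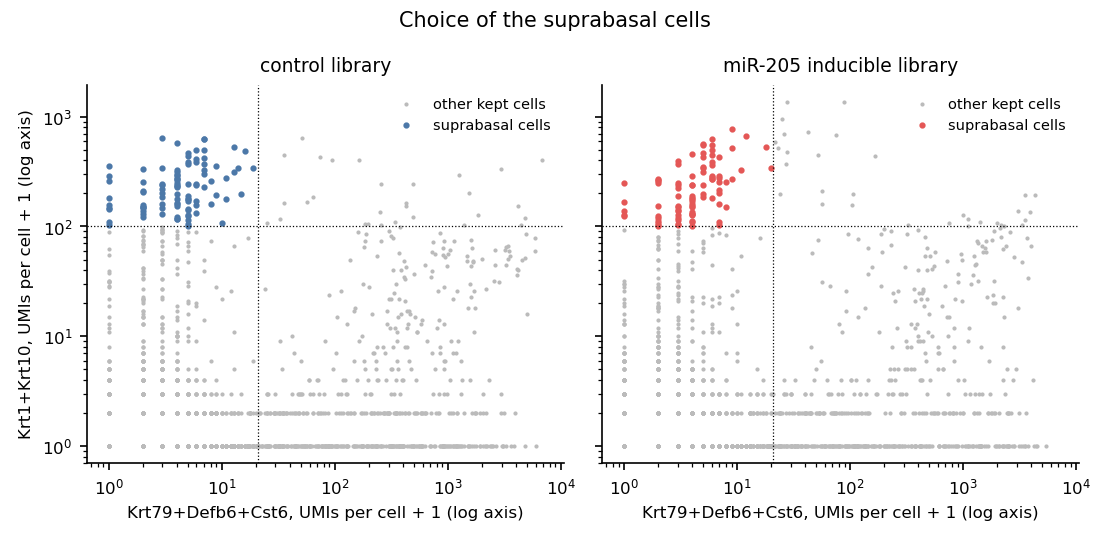
Each point is a kept cell, placed by its UMIs of Krt79+Defb6+Cst6 (horizontal, plus 1, log axis) and of Krt1+Krt10 (vertical, plus 1, log axis), with dotted lines at the limits of 20 and 100 UMIs. The 95 control and 88 induced suprabasal cells fill the upper left of each panel, continuous with cells of lower Krt1 and Krt10 beneath them and apart from most upper follicle cells to the right.

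The label of the cells was checked against 3 marker genes that the choice did not use. Mt4, the metallothionein of stratified epithelium, was counted at 700.4 CPM in the control and 593.6 in the induced suprabasal cells, against 14.5 and 9.13 CPM in basal cells. Krtdap, a secreted protein of differentiating keratinocytes, was counted at 5422 and 4872 CPM, against 41.3 and 82.7 in basal cells. Krt77, a suprabasal keratin of adult skin, was counted at 2176 and 3202 CPM, against 96.5 and 156 in basal cells. Each of these markers was thus more than 20-fold higher than in the basal cells of its own library. The rule genes themselves stood at 3539 and 3232 CPM for Krt1 and at 8445 and 9011 CPM for Krt10.

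Promoter stretches of 3 markers are shown because they held the letters of a TATA box. They came from RefSeq on GRCm38.p6, and capitals mark TATAAA on the sense strand. The Krt10 stretch lies on the minus strand at chr11:99389373-99389402, the Mt4 stretch on the plus strand at chr8:94137162-94137191 and the Krtdap stretch on the plus strand at chr7:30787863-30787892.
Krt10: gccctctcagtaTATAAAggctcggcactg
Mt4: cacctacacaacTATAAAgagggtgcctgc
Krtdap: accccttgctaaTATAAAgggccatcaggg
TATAAA occurred on the sense strand of 8.88% of 27025 promoters of the same length and of 6.67% of the promoters of 300 matched genes higher in suprabasal than in basal cells. Krtdap also held a match to TGANTCA, the letters of the AP-1 motif searched on both strands, at chr7:30787812-30787841.
Krtdap, AP-1 in capitals: atgatccggggaTGAGTCActagggtggga
TGANTCA was present in 7.93% of all promoters and 10% of those of the higher genes. AACCNGTT, the grainyhead motif, was present in 2.01% and 2.33%. The promoter of Krt77 held none of these letters, and Krt1 had no match in the table.

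The chosen cells were early differentiating cells and hardly reached the granular layer. Lor, the main protein of the cornified envelope, was counted at 12.1 CPM in the control and 5.50 in the induced cells, and 30 of 183 cells held any Lor UMI. All 7 granular markers together gave 30.8 and 26.4 CPM, with 2 of the 7 at 0 UMIs in each library. In upper follicle cells, defined by at least 20 UMIs of Krt79, Defb6 and Cst6, the same markers summed to 1079 and 549 CPM. In basal epidermal cells they summed to 20.5 CPM in the control and 134 in the induced library. The induced basal sum was thus above the induced suprabasal sum, so these markers did not order the layers there.

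Markers of immune, dermal and pigment cells were low. T cell markers summed to 1.51 and 2.20 CPM with 3 of 6 at 0 UMIs, and the 4 melanocyte markers gave 0 UMIs in both libraries. Fibroblast markers summed to 21.2 and 9.89 CPM, and those of vessel and muscle to 3.03 and 4.40. Langerhans and antigen presenting markers summed to 39.8 and 30.2 CPM. Cells with at least 5 UMIs of immune, dermal, melanocyte or vessel markers numbered 5 in the control and 0 in the induced library, and in all 5 these were antigen presenting markers. Among follicle and gland markers, bulge markers summed to 44.9 and 46.7 CPM and sebaceous markers to 44.4 and 61.6 CPM. Inner bulge markers summed to 34.3 CPM in the control and 78.6 CPM in the induced cells, with 3 and 10 cells at 5 or more UMIs, and nearly all of this was Krt6a, at 34.3 and 76.9 CPM. Upper follicle markers summed to 1044 and 662 CPM, most of it Krt17, at 848 and 474 CPM. Krt17 is shared by follicle and activated epidermal keratinocytes, and it stood lower in the induced cells, although with cells chosen by shares of UMIs its log2 ratio was 0.84 in the other direction. Its part in the comparisons of the libraries was not tested.

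**Figure D2:**
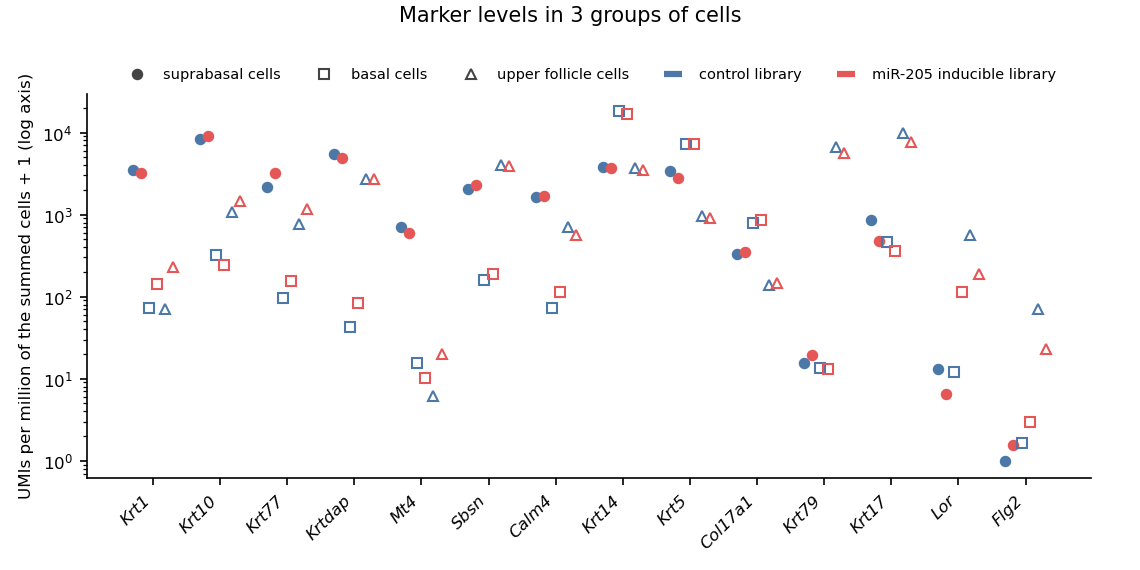
Levels of 14 genes in CPM of the summed cells, plus 1 on a log axis, in suprabasal (filled circles), basal (open squares) and upper follicle cells (open triangles) of the control (blue) and induced library (red). Krt1, Krt10, Krt77, Krtdap and Mt4 are highest in suprabasal cells in both libraries, Krt14 and Krt5 in basal cells, and Lor and Flg2 stay below 20 in the suprabasal cells.

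Suprabasal cells were next set beside basal epidermal cells, taken as cells with at least 100 UMIs of Krt5 and Krt14, fewer than 100 of Krt1 and Krt10, at least 3 of Ly6a and fewer than 20 of Krt17. They numbered 387 in the control and 337 in the induced library. Because the choice of cells separated these groups, the contrast describes them and is no test. A gene was counted as higher or lower when its ratio passed 1.5-fold in both libraries. Of 7331 genes measured, 413 were higher (5.63%) and 842 were lower (11.5%). A gene was measured when its UMIs in suprabasal and basal cells together reached a minimum, and the basal cells were more numerous. Genes low in suprabasal cells therefore passed this minimum more easily than genes low in basal cells. The lengths of these lists thus cannot show which layer held more genes of its own.

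Basement membrane genes were lower as a group. Of 21 measured genes of the basal and basement membrane list, 19 were lower in both libraries and 0 were higher, and the median log2 ratio was −2.00 in the control and −1.85 in the induced library. Krt5, Krt14 and Ly6a, which chose the basal cells, are among the 21. Itgb1, the integrin subunit common to most matrix receptors of the keratinocyte, was at 47.4 and 41.8 CPM, against 389 and 321 in basal cells. Itga3, a laminin receptor subunit, was at 2.52 and 3.85 CPM, against 59.8 and 69.8. Col17a1, the hemidesmosomal collagen, was lower by less, with log2 ratios of −1.27 and −1.31. The order of these genes was the same in both libraries.

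Desmosomal genes went both ways. Of 21 measured genes of desmosomes and adherens junctions, 9 were higher and 4 were lower. Dsg1a, a desmoglein of the differentiated layers, was at 469 and 464 CPM, against 141 and 149 in basal cells. Dsg2, a desmoglein of the basal layer, was at 6.56 and 2.75 CPM, against 98.7 and 65.7. Desmoplakin, the plaque protein encoded by Dsp, was higher with log2 ratios of 0.63 and 0.81. The desmogleins thus stood on opposite sides of the layer boundary, while the plaque gene was abundant in both layers.

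Barrier genes were higher as a group. In the cornified envelope list 9 of 10 measured genes were higher and 0 lower, and in the barrier lipid list 12 of 20 were higher and 1 lower. Sbsn, a secreted protein of the differentiating layers, was 12.9-fold higher in the control and 12.3-fold higher in the induced library. Acer1, the alkaline ceramidase of the epidermis, was 32.1-fold and 32.4-fold higher. Elovl4, which makes the very long fatty acids of skin ceramides, was 15.0-fold and 19.9-fold higher, and Abca12, which loads lipids into lamellar granules, was 6.44-fold and 6.90-fold higher. Abca12 was not particular to these cells, at 194 and 149 CPM against 128 and 96.2 CPM in upper follicle cells. Spink5, an inhibitor of the proteases that shed cornified cells, was 10.6-fold and 10.7-fold higher. Calm4, an epidermal calmodulin-like protein, was 22.7-fold and 14.8-fold higher. The lipid enzymes and the protease inhibitor were thus counted in cells with almost no Lor.

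The metallothioneins differed in opposite directions. Mt4 was 47.9-fold and 64.4-fold higher than in basal cells. Mt1 was lower, at 2300 and 2151 CPM against 5239 and 4780. Mt2 was also lower, at 886 and 994 CPM against 2284 and 2198. Mt4 was therefore higher and Mt1 and Mt2 lower in the suprabasal cells of both mice, where Mt1 and Mt2 were still more abundant than Mt4.

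Among regulators, 7 of 28 measured genes were higher and 5 lower. Grhl3, the grainyhead factor of barrier formation, was at 108 and 120 CPM, against 7.77 and 5.48 in basal cells. Zfp750 was at 102 and 111 CPM, against 14.7 and 7.85. Prdm1 was at 81.7 and 85.7 CPM, against 20.8 and 19.7. Cebpa was at 274 and 295 CPM, against 46.8 and 55.9. These differentiation factors were all higher, while Trp63, the master factor of the basal state, was lower by a log2 ratio of −0.84 in the control and −0.66 in the induced library. In the Notch list 3 of 10 measured genes were higher and 2 were lower. The receptor gene Notch3 was higher, with log2 ratios of 2.59 and 3.17. The ligand genes Dll1 and Jag2 were lower, with log2 ratios of −3.85 and −2.90 for Dll1 and of −4.24 and −4.18 for Jag2. Notch3 and these 2 ligands thus lay on opposite sides of the layer boundary. The receptor gene Notch1 was nearly level between the layers, with log2 ratios of 0.22 and 0.24.

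In the cell cycle list 16 of 18 measured genes were lower than in basal cells and 0 were higher. Over all genes 11.5% were lower and 5.63% higher. Only 3 of the 31 listed genes reached the UMI minimum in the suprabasal cells alone, so most of the 18 were measured through their basal UMIs. Genes low in basal cells could hardly enter, and this count therefore cannot show a direction for the list. After each cell was thinned to 5000 UMIs, Mki67, a marker of cycling cells, gave a UMI in 0 of 95 control cells, which allows a share of cells with a UMI of up to 3.16%, and in 0 of 87 induced cells, which allows up to 3.45%. These limits are on detection at this depth and not on cells that express the gene. It was found in 2.59% of basal control and 4.49% of basal induced cells at the same depth. Top2a, which is needed to separate chromosomes, was found in 5 control cells and 1 induced suprabasal cell, at 5.26% (1.73 to 11.9) and 1.15% (0.0291 to 6.24), and in 3.63% of basal control and 3.59% of basal induced cells. The Top2a intervals included the basal shares in both libraries. For Mki67 the control limit of 3.16% lay above the basal 2.59%, and the induced limit of 3.45% lay below the basal 4.49% (2.54 to 7.30). Without thinning, Mki67 was found in 0% and 1.14% and Top2a in 5.26% and 4.55% of suprabasal cells. In basal cells these shares were 4.91% and 5.93% for Mki67 and 6.72% and 6.23% for Top2a. Top2a gave 9 UMIs in 95 control and 4 in 88 induced suprabasal cells, against 208 in 387 and 180 in 337 basal cells. A difference between the libraries was not detectable at this depth.

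The suprabasal cells differed widely among themselves. Krt14 and Krt5 together ranged from 0 to 1246 UMIs per control cell and from 1 to 876 per induced cell, with medians of 73 and 76.5. Krt10, whose even level follows in part from the choice of cells, had a coefficient of variation across cells of 0.446 in the control and 0.475 in the induced library. Krt77, which the choice did not use, had coefficients of 0.887 and 0.916. Mt4 was uneven, with coefficients of 1.28 and 1.45 and detection in 76.8% and 71.6% of cells. Among 634 genes with at least 300 UMIs in each library, the variance beyond counting error, taken as the lower value of the 2 libraries, was highest for S100a6, Sprr1b, Hspa1a, Fos and Spink5. S100a6 was highest in each library, and the order of the others differed between them. These 5 were chosen after their values were seen. S100a6 and Sprr1b were detected in 69.5% and 28.4% of control cells and 69.3% and 28.4% of induced cells, so the same share of cells in each mouse carried them.

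To follow the cells outward, the 183 cells were divided into 3 position groups, early, middle and late, by the log2 ratio of Lor plus 1 over Krt14 and Krt5 plus 1. As Lor was almost absent, this order was in practice that of descending Krt14 and Krt5, and these genes are given as description. The early group held 33 control and 28 induced cells, the middle group 30 and 31 and the late group 32 and 29. Median Krt14 and Krt5 was 223 and 255 UMIs per cell in the early, 73 and 78 in the middle and 7.5 and 4 in the late group. Depth was similar, with median UMIs per cell between 19042 and 22840 in every group and library. Ordering by the share of Krt14 and Krt5 in the UMIs of a cell, chosen after the data were seen, placed 28 cells in another group. Of 2079 genes with at least 100 UMIs in each library, 52 (2.5%) were higher late than early by 1.5-fold in both libraries, and 45 (2.16%) were lower.

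The late cells were richer in lipid and barrier genes. Fabp5, a fatty acid binding protein, was at 217, 446 and 611 CPM from the early to the late group of the control and at 177, 397 and 875 in the induced library. Them5, a mitochondrial thioesterase, was at 41.7, 94.1 and 137 CPM in the control and 28.9, 71.3 and 135 in the induced library. Both were higher in each later group in each mouse. Krtdap was at 2724, 4914 and 8896 CPM in the control and at 2105, 4147 and 8252 in the induced library. Calm4 was at 681, 1894 and 2400 CPM in the control and at 842, 1582 and 2522 in the induced library. In the barrier lipid list 5 of 10 measured genes were higher late and 0 lower. In the cornified envelope list 3 of 8 were higher and 0 lower, with a median log2 late over early ratio of 0.45 in the control and 0.92 in the induced library.

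The remaining genes among the 10 highest late over early were Asprv1, Ly6g6c, Dnase1l3, Slc39a2, Me1 and Tprg. Asprv1, the skin protease that processes profilaggrin, had the same direction in both libraries but no even course, at 47.3, 114 and 154 CPM in the control and 150, 53.4 and 795 in the induced library. Ly6g6c, a member of the Ly6 family, had log2 ratios of 1.81 and 2.04. Slc39a2, a zinc importer, had log2 ratios of 1.59 and 2.09. Mt4 differed in size between the libraries, at 302, 810 and 1039 CPM in the control and at 432, 589 and 753 in the induced library. Mt1 went the other way, with log2 ratios of −0.73 and −0.96, as did Mt2, at −0.83 and −1.33. The opposite directions of Mt4 and of Mt1 and Mt2 were therefore also seen within the suprabasal cells.

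Keratins followed 2 courses. Krt77 was at 1014, 2126 and 3512 CPM in the control and at 1649, 2957 and 4935 in the induced library, and was higher in the induced library in every position group. Krt10, a rule gene, differed less between groups, with log2 late over early ratios of 0.75 and 0.68. Krt16, an activation keratin, was lower late, at 4489, 3772 and 2420 CPM in the control and 2984, 2876 and 2242 in the induced library.

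Basal genes were lower in the late group. In the basal and basement membrane list 8 of 11 measured genes were lower and 0 higher, including Krt14 and Krt5. S100a6, a calcium-binding protein, was at 280, 388 and 50.9 CPM in the control and at 700.5, 149 and 60.3 in the induced library. The late values lay close together and the early and middle values did not, but 5 cells held 60.3% of the control and 63.6% of the induced UMIs. Bcam, a laminin receptor, was at 103, 58.4 and 26.2 CPM in the control and at 102, 90.7 and 24.4 in the induced library. Thbs1, a matrix glycoprotein, had log2 late over early ratios of −1.81 and −1.29. Krt17, Pxdc1, Tspo and Epgn were also among the 10 lowest. Epgn, an epidermal growth factor receptor ligand, differed between the mice, at −0.57 in the control and −3.46 in the induced library, and 5 cells carried 62.6% and 76.1% of its UMIs. Trp63 was lower late by −0.82 and −1.12, and Cebpa was higher by 1.11 and 1.07.

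**Figure D3:**
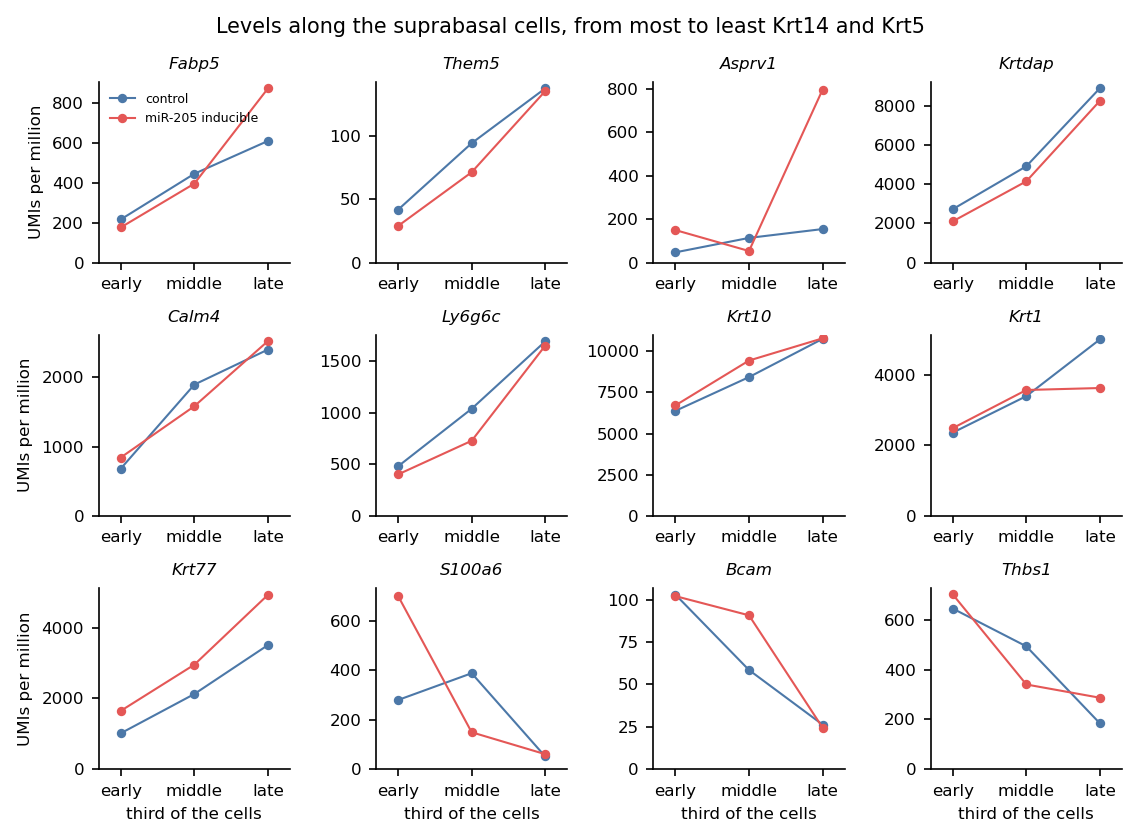
Levels of 12 genes in CPM (linear axes from 0) in the early, middle and late group of the suprabasal cells, for the control (blue) and induced library (red). Fabp5, Them5, Krtdap, Calm4, Ly6g6c, Krt10, Krt1 and Krt77 are higher late than early in both libraries, S100a6, Bcam and Thbs1 are lower late, and Asprv1 reaches 795 only in the late induced group.

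The induced library was then compared with the control within the suprabasal cells. Of 5527 genes that reached 50 UMIs in the cells of both mice together, 303 (5.48%) were past 1.5-fold higher in the induced library and 256 (4.63%) were past 1.5-fold lower, with a median log2 ratio of −0.00 over all. With 1 mouse per group these are differences between 2 libraries, and the spread between animals was not measured. Among the 2170 genes with at least 200 UMIs, 47 were higher and 48 lower. Fewer transcripts per cell and fewer contributing cells cannot be told apart in these sums, and for several genes concentrated in few cells the share of UMIs in the top 5 cells is given.

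Because miR-205 was induced, its sequence and sites of it in the transcripts that the study names are shown. The mature mmu-miR-205-5p comes from RefSeq, on the minus strand at chr1:193507503-193507524 of GRCm38.p6, with its seed (bases 2 to 8) in capitals. The target stretches are 3′ UTR sequence of GENCODE transcripts on NCBIM37, with the complement of the seed in capitals, on the minus strand at chr5:143664885-143664913 for Actb and on the plus strand at chr12:16995059-16995080 for Rock2.
miR-205-5p: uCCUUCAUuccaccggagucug
Actb: caacttgatgtATGAAGGctttggtctcc
Rock2: acattgaagagATGAAGGcaga
The annotated 3′ UTRs of Actb and Rock2 held 1 such stretch each and those of Piezo1 held 2, in different transcripts. Those of Actn1, Actn4 and Ctnna1 held 0 stretches with these 7 letters, which says nothing of shorter pairing.

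Of the measured targets, Actb and Rock2 had counting intervals below 0, and those of the others included 0. These intervals leave out the spread between cells as well as between animals. For Actb the coefficient of variation across cells was 0.642 in the control and 0.682 in the induced library. The intervals therefore cannot show which targets differed. Actb, the cytoplasmic β-actin, was at 7837 CPM in the control and 6632 in the induced library, a log2 ratio of −0.24 (−0.28 to −0.21). Rock2, a kinase that activates actomyosin contraction, was at 175 and 143 CPM, a log2 ratio of −0.30 (−0.53 to −0.06). Actn4, which crosslinks actin, had a log2 ratio of −0.11 (−0.28 to 0.05), and Ctnna1, which ties cadherins to actin, of −0.01 (−0.19 to 0.16). Piezo1, a mechanosensitive channel, gave 38 and 43 UMIs, with a log2 ratio of 0.30 (−0.36 to 0.97), and Actn1 gave 18 and 12 UMIs and was too low to compare. Of the 5 measured targets 4 lay below 0, as did 2807 of all 5527 genes. Of these targets 0 were past 1.5-fold, against 4.63% of all genes past 1.5-fold lower.

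The Actb difference lay in the middle group. Control cells had 7689, 8927 and 6966 CPM from early to late, and induced cells had 7946, 5054 and 6960. The log2 ratio was 0.05 early, −0.82 in the middle (−0.88 to −0.76) and −0.00 late. Serpinb2, an abundant intracellular serpin, had ratios of 0.03, −1.02 and −0.50, and Krt17 had −0.23, −1.89 and −0.43. With groups formed by the share of Krt14 and Krt5 the middle value of Actb was −0.47 and the late value −0.15, for Serpinb2 they were −0.64 and −0.67, and for Krt17 they were −1.37 and −1.45. The middle group was then lowest for Actb alone. The wider actin cytoskeleton list had 43 of 58 measured genes below 0, with a median of −0.12, 2 past 1.5-fold higher and 1 past 1.5-fold lower. Over all genes 2807 of 5527 lay below 0, and 5.48% and 4.63% were past 1.5-fold higher and lower. In basal cells the median of that list was −0.09.

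Junction genes lay lower in the induced cells. All 12 measured genes of the tight and gap junction list had a log2 ratio below 0, with a median of −0.24, against −0.00 over all genes. Past 1.5-fold lower was 1 of the 12, against 4.63% of all genes. Cldn4, a barrier claudin of upper layers, was at 1228 CPM in the control and 778 in the induced library, a log2 ratio of −0.66 (−0.75 to −0.56), and −0.36 with cells chosen by shares of UMIs. Cldn1, the claudin required for the skin barrier, was at 1214 and 861 CPM, a log2 ratio of −0.49 (−0.59 to −0.40). Epcam, an epithelial adhesion protein that binds claudins, was at 905 and 420 CPM, a log2 ratio of −1.11 (−1.23 to −0.98), with −0.87, −1.15 and −1.28 from early to late. In basal cells the list median was −0.51 and Epcam had −0.66. Genes of desmosomes and adherens junctions lay near 0, with a median of −0.04 and 0 of 19 past 1.5-fold.

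Cholesterol synthesis genes had the lowest list median, at −0.37 over 18 genes. Of these, 3 were past 1.5-fold lower and 1 higher, against 4.63% and 5.48% of all genes. Cyp51 had a log2 ratio of −0.79 (−1.13 to −0.46), Sqle of −0.68 (−1.10 to −0.28) and Sc5d of −0.60 (−0.93 to −0.27), all enzymes of the sterol pathway. Hmgcs1, at its start, had 0.08 (−0.13 to 0.29). This order depended on the choice of cells, since with cells chosen by shares of UMIs the list median was 0.28, Sqle stood at 0.10, Cyp51 at −0.17 and Sc5d at −0.25.

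The 5 label markers lay within 1.5-fold between the libraries. Krt1 had a log2 ratio of −0.13, Krt10 of 0.09, Krtdap of −0.15 and Mt4 of −0.24. Krt77 had the largest, at 0.56 (0.50 to 0.61), and was 0.69 in basal cells. These values depended on the choice of cells, since by shares of UMIs Krt77 stood at 0.90 and Krtdap at 0.43, Sbsn at 0.86 against 0.18, the cornified envelope median at 1.43 and the keratin median at 0.40. Of the keratin list 1 of 12 was past 1.5-fold higher, which was Krt6a, and 1 lower, which was Krt17. The shares over all genes, for this list and the next, were 5.48% higher and 4.63% lower. Krt6a, a keratin of follicles and activated epidermis, was at 34.3 and 76.9 CPM, and 5 cells held 88.2% of its control and 65% of its induced UMIs. Its log2 ratio was 1.16, and 4.08 with cells chosen by shares of UMIs. Of 11 measured cornified envelope genes 1 was past 1.5-fold higher and 1 lower. Members of the Sprr2 cluster, whose near-identical copies can share reads, were seen in a handful of cells, with Sprr2h at 48 control and 6 induced UMIs and Sprr2d, named after its values were seen, at 44 and 0 UMIs. Among regulators 2 of 26 were past 1.5-fold higher and 0 lower, against 5.48% and 4.63% of all genes. Klf4, a barrier factor, had 0.47 (0.34 to 0.61), and Grhl3 and Trp63 had 0.15 and 0.16.

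Among the 10 highest ratios were those of Pyy, Gm8797, Asprv1, Defb1, Pla2g2f, Zfp36l2, Ybx3, Krt6a and Alox12e. Pyy, the gut hormone peptide YY, gave 9 control and 235 induced UMIs, but it was detected in 8.42% and 10.2% of cells, and 5 cells held 91.1% of the induced UMIs. The share of cells was thus alike, and the ratio of 4.76 (3.88 to 5.98) rests on few cells. Gm8797, a ubiquitin pseudogene whose reads may be divided with the ubiquitin genes, was in contrast detected in 43.2% of control and 97.7% of induced cells, at 23.7 and 384 CPM. Its log2 ratio was 4.00 (3.59 to 4.48) in suprabasal and 4.59 in basal cells.

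Ybx3, a cold shock protein that binds RNA, was detected in every cell of both libraries, at 359 and 845 CPM. Its log2 ratio was 1.23 (1.11 to 1.37), between 1.12 and 1.34 in the position groups and 1.15 in basal cells, so the difference was spread evenly over cells and layers. Pla2g2f, a secreted phospholipase of the upper epidermis, was detected in 45.3% and 83.0% of cells and had a log2 ratio of 1.30 (0.94 to 1.68), against 2.99 in basal cells. Alox12e, an epidermal lipoxygenase, was detected in 23.2% and 47.7% of cells, with a ratio of 1.15 (0.74 to 1.58). Defb1, an antimicrobial peptide, had 1.39 (1.05 to 1.76), and Zfp36l2, which promotes decay of messenger RNAs, had 1.24 (0.97 to 1.52) but 0.24 in the late group. Asprv1 had 1.70 (1.47 to 1.94), between 0.98 and 2.94 over the alternatives, with 5 cells holding 67.6% and 68.6% of its UMIs.

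The 10 lowest ratios were those of Rgs2, Ccdc71l, Tslp, Epcam, Hpgds, Igfbp3, Gm10076, Palld, Tubb2a and Krt17. Rgs2, a brake on G protein signalling, was at 209 and 81.3 CPM, a log2 ratio of −1.36 (−1.64 to −1.09), against −0.55 in basal cells. Hpgds, which makes prostaglandin D2, was at 185 and 89.6 CPM, with log2 ratios of −0.63, −1.40 and −1.07 from early to late. Tslp, an epithelial cytokine, was at 251 and 106 CPM, and in the control 5 cells held 69.6% of its UMIs. Several of these differences depended on the choice of cells, and by shares of UMIs Rgs2 stood at −0.26 and Tubb2a at −0.40, while Tslp stood at −0.22 with at least 200 UMIs of Krt1 and Krt10. Igfbp3, which binds insulin-like growth factors, had ratios of −1.94, −0.92 and −0.41 from early to late. Its difference was thus largest in the cells with the most Krt14 and Krt5. All 10 genes also lay below 0 in basal cells. The choice of basal cells capped Krt17, however, so its basal ratio cannot show whether the layers were alike. Krt17 also turned to 0.84 with suprabasal cells chosen by shares of UMIs. Fst, an activin antagonist chosen after its values were seen, had −0.70 (−0.93 to −0.47) in suprabasal and 0.89 (0.76 to 1.02) in basal cells, with 5 cells holding 76.0% of its control and 84.9% of its induced suprabasal UMIs.

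**Figure D4:**
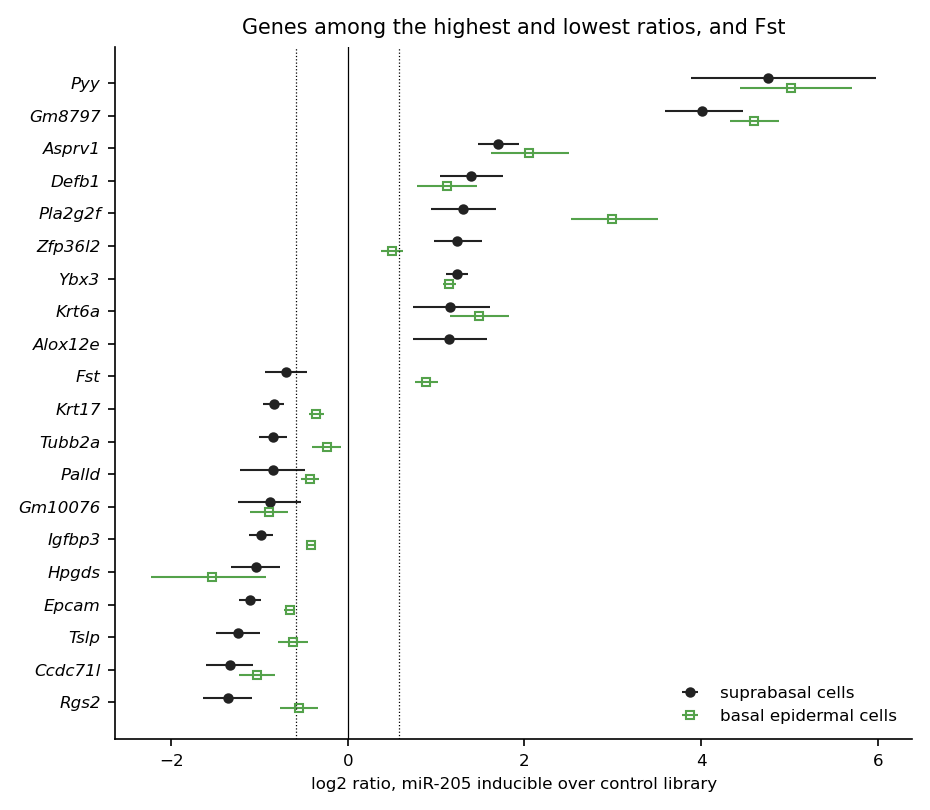
Log2 ratios of the induced over the control library with 95% counting intervals (bars) for 9 of the 10 highest genes, the 10 lowest genes and Fst, in suprabasal (filled circles) and basal cells (open squares), with dotted lines at 1.5-fold. Where both could be measured the 19 genes of high or low ratio lie on the same side of 0 in both layers, and Fst lies on opposite sides. Krt17, at −0.84 here, turned to 0.84 with suprabasal cells chosen by shares of UMIs. The choice of basal cells capped Krt17, so its basal ratio cannot show whether the layers were alike.

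Immune and stress genes completed the comparison. For the lists below, the shares past 1.5-fold over all genes were 5.48% higher and 4.63% lower. In the antigen presentation and interferon list 5 of 15 measured genes were past 1.5-fold higher and 0 lower. The median of that list was 0.19, against 0.61 in basal cells. Ifitm3, an interferon-induced membrane protein, was at 175 and 301 CPM, a log2 ratio of 0.78 (0.58 to 0.98). Tap1, the peptide transporter of antigen presentation, had 0.85 (0.46 to 1.25), and B2m had 0.02 (−0.06 to 0.10). In the other direction, Ifi202b, an interferon-inducible gene, was at 1099 and 800.3 CPM, a log2 ratio of −0.46 (−0.55 to −0.36). H2-T23, a nonclassical class I gene, was at 178 and 129 CPM, a log2 ratio of −0.47 (−0.71 to −0.22). Ccl27a, a chemokine of keratinocytes, was at 504 and 914 CPM, a log2 ratio of 0.86 (0.74 to 0.97), with 0.68, 0.82 and 1.24 from early to late. Of the heat shock chaperones 1 of 14 was past 1.5-fold higher, Dnajb1, at 0.67 (0.53 to 0.81), and at 0.56 with at least 200 UMIs of Krt1 and Krt10. Of the immediate early genes, which respond to cell dissociation, 3 of 21 were past 1.5-fold higher and 0 lower, with a median of 0.10. Fosb had 0.70 (0.52 to 0.89), and 0.47 with cells chosen by shares of UMIs. The part of dissociation in these values was not tested.

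Of the other lists, Notch genes had a median of 0.26 over 8 genes, basal and basement membrane genes of 0.19 over 18, oxidative stress genes of 0.17 over 19, ribosomal proteins of 0.06 over 80, barrier lipids of −0.01 over 21, proteases and inhibitors of −0.04 over 21, alarmins of −0.06 over 10, calcium genes of −0.07 over 14 and metallothioneins of −0.10 over 3. Cell cycle genes were too few, with 3 of 31 measured. Across up to 13 settings 6 of 20 lists kept 1 sign of the median: actin, desmosome and adherens junction, tight and gap junction, heat shock, antigen presentation and the study's targets.

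**Figure D5:**
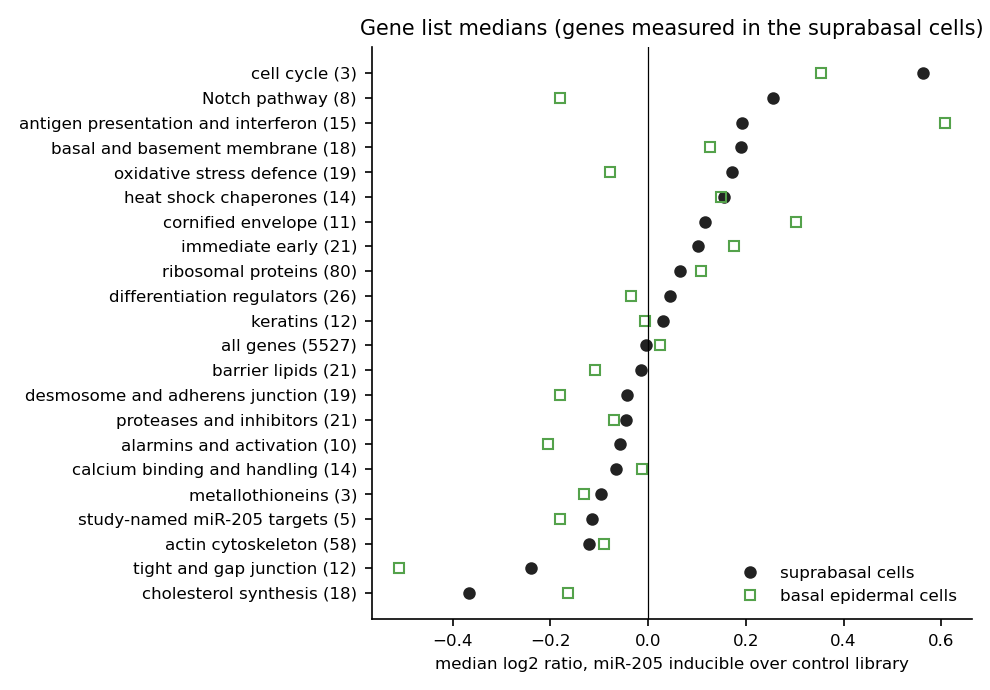
Median log2 ratio of the induced over the control library for each gene list in suprabasal (filled circles) and basal cells (open squares), with the number of genes measured in suprabasal cells in parentheses. The cholesterol synthesis and the tight and gap junction lists lie lowest in suprabasal cells, at −0.37 and −0.24, and all genes lie at −0.00. With cells chosen by shares of UMIs the cholesterol median turned to 0.28.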

How the data were processed

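Single-cell RNA-seq of back skin from 1 control and 1 miR-205 inducible mouse was analysed, with 4545 and 4264 barcodes and 55465594 and 49733560 UMIs. The authors counted UMIs with Cell Ranger (version 3.0.1 per the file headers) and deposited raw counts, without normalization. The submitters' processing notes name mm10, without its role. Cells with more than 200 and fewer than 5000 genes and under 10% mitochondrial UMIs were kept, as the study states. No doublet caller was run.

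Counts were summed over the cells of a group and library and scaled to counts per 1000000 UMIs (CPM), with exact Poisson intervals. Log2 ratios used a pseudocount of 0.5 UMIs and conditional binomial 95% intervals, for genes with at least 50 UMIs, or 100 in each library for late over early. Shares have Clopper-Pearson intervals, and a count of 0 is given with the limit of 3 counts. All of these cover counting error only. With 1 library per group no test was run, and a gene was called past 1.5-fold. The ratio step was tested on simulated counts.

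Genes named were the label markers, the study's targets, the 10 highest and lowest induced over control (at least 200 UMIs) and late over early ratios, the 10 highest over other cells, and up to 4 genes per list by each ratio. The genes given as layer contrasts with basal cells (Itgb1, Itga3, Col17a1, Dsg2, Dsp, Notch3, Dll1, Jag2, Zfp750, Prdm1) and Sprr2h are list members named after their values were seen. The position order was planned on Lor, which was nearly absent, so it follows raw Krt14 and Krt5 UMIs and is not free of depth. The cells, lists and rules were chosen with earlier results of these data known. Alternatives changed the cell filter, the choice of cells, scaling, weighting, the UMI minimum and the order of cells. Analyses used Python 3.11.15 with numpy 2.4.6, scipy 1.17.1 and pandas 2.3.3. Some genes that this rule names are not reported here.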

Additional observations from a re-analysis of the deposited data

Results flagged for a closer look

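Fst, which encodes the activin antagonist follistatin, was past 1.5-fold in opposite directions in the 2 epidermal layers, with intervals on opposite sides of 0. Its log2 ratio of the induced over the control library was −0.70 (−0.93 to −0.47) in suprabasal cells and 0.89 (0.76 to 1.02) in basal cells, and the difference was not tested. In the suprabasal cells it gave 421 control and 238 induced UMIs, was detected in 31.6% and 27.3% of cells, and 5 cells held 84.9% of the induced UMIs. Fst was named after its values were seen.

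Outside the cell filter, 10 control and 12 induced barcodes met the limits on Krt1 and Krt10 and on Krt79, Defb6 and Cst6. Of these, 5 control and 3 induced barcodes had too many genes, and 6 and 9 had too many mitochondrial UMIs. They were not analysed here.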

How the results depend on the processing

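Choosing cells by shares of UMIs (at least 1% Krt1 and Krt10, under 0.2% Krt79, Defb6 and Cst6) mattered most and moved 83 of 141 named ratios. It gave 56 control cells (1.42%) and a share of 1.74% in the induced library. The list medians of the ratio became 1.43 for cornified envelope, 0.40 for keratins, 0.31 for barrier lipids, 0.66 for proteases, −0.093 for basal genes, −0.30 for the study's targets and 0.28 for cholesterol synthesis, while Krt17 (0.84) and Sqle (0.10) turned positive. Under 5% mitochondrial UMIs the shares were 3.32% and 3.20% and the immediate early median 0.39, and late over early Sprr1b turned to −0.10. Requiring 50 keratin UMIs gave 3.38% and 3.11%, and 200 gave 51 (1.30%) and 46 (1.27%) cells, with medians of 0.50 for immediate early genes and 0.19 for metallothioneins. With at least 20 UMIs 774 genes were higher and 527 lower, and with at least 200 UMIs 47 and 48, because other numbers of genes were measured. Thinning to 5000 UMIs gave 92 genes higher and 70 lower late, with medians of −0.10 for immediate early and 0.53 for cholesterol genes. Ordering by the share of Krt14 and Krt5, chosen after the data were seen, gave a late metallothionein median of −1.09. The causes were not tested.

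Of 34 named genes past 1.5-fold between the libraries, 32 kept their sign and 20 stayed past 1.5-fold under all of up to 12 alternatives, and of 66 late over early, 65 and 54 did so. The median of 6 of 20 lists kept 1 sign, among them tight and gap junction (−0.48 to −0.19) and actin (−0.17 to −0.09). Genes of few UMIs were limited by depth. No paired analysis was possible because each group held 1 library.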
